A study of Mus musculus with 12 samples.

Results

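The genes described here build, fuse and divide mitochondria and maintain mitochondrial DNA. They are 37 of the 20660 genes that could be named on the array. A gene was taken when its symbol was Timm or Tomm followed by a digit, or when it was Mfn1, Mfn2, Opa1, Dnm1l, Fis1, Mff, Tfam, Nrf1, Gabpa, Polg, Twnk or Ssbp1. Each gene was read from the brightest of its probes, and 60 probes matched the 37 genes. The study compared mice lacking Lr11, a sorting receptor whose gene is called Sorl1 in current annotation, with their wild-type (WT) littermates. Subcutaneous white adipose tissue (scWAT) and brown adipose tissue (BAT) were profiled on 12 one-colour arrays, 3 for each genotype in each depot. All mice were C57Bl6/J males aged 12 weeks and all were fed a high-fat diet, so no group here was on another diet. The labels give both 4 weeks of the diet and feeding from weaning. They do not tell whether the scWAT and BAT of a genotype came from the same animals or whether the 3 arrays were 3 mice. The p-values below therefore measure the spread between arrays, which may be technical in part and was estimated over all 4 groups together. The labels name no restriction of the deletion to a tissue. Both depots are mixtures of cells, in which more cells of a type and more RNA per cell cannot be told apart.

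Most mitochondrial proteins are made in the cytosol and enter through the translocase of the outer membrane (TOM). The TIM23 complex then passes proteins with a presequence into the matrix, and the TIM22 complex inserts carrier proteins into the inner membrane, to which small TIM chaperones escort them. Mitofusins join outer membranes and Opa1 joins inner membranes, whereas the GTPase Dnm1l divides mitochondria at sites marked by Fis1 and Mff. The transcription factors Nrf1 and Gabpa drive many nuclear genes for mitochondria, among them Tfam, which packages mitochondrial DNA. Brown adipocytes are packed with mitochondria and white adipocytes hold few.

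The promoters of these genes were searched for the letters that Nrf1 and Gabpa are known to bind, in windows running from 250 bases before to 50 bases after the start of each gene in the RefSeq table of build GRCm38.p6. The table held 34 of the 37 genes and lacked Timm21, Tomm7 and Tomm40l, which the motif counts therefore leave out. The Gabpa letters CCGGAAG, read on either strand, were present for 17 of the 34 genes (50%), against 17.4% of the 11673 tested genes in the table and 8.86% of all 32851 promoters in it. The Nrf1 letters GCGCANGCG, read on either strand, were present for 4 of 34 (11.8%), against 13.3% of the tested genes and 6.25% of all promoters. Only the Timm8b window held both. A match is a stretch of letters and not a measured binding site. The letters CCGGAAG are those of the ETS family, to which Gabpa belongs, and are not particular to Gabpa. The following windows, 5′ to 3′ with matches in capitals, show a gene of DNA replication, the packaging factor, the fusion genes Mfn1 and Opa1, the receptor Tomm22 with 3 matches, the window with both motifs and a fission gene.
Polg, chr7:79466224-79466523, minus strand: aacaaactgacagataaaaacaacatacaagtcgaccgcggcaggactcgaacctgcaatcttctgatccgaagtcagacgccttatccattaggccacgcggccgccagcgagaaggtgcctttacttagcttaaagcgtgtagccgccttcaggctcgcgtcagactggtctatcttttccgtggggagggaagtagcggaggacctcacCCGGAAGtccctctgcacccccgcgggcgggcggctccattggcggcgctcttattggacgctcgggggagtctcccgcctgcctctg
Tfam, chr10:71237995-71238294, minus strand: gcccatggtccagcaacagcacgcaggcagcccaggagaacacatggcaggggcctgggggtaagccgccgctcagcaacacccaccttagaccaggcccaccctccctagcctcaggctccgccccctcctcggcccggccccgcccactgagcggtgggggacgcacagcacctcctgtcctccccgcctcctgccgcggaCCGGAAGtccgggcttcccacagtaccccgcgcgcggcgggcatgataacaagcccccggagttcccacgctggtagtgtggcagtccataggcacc
Mfn1, chr3:32529232-32529531, plus strand: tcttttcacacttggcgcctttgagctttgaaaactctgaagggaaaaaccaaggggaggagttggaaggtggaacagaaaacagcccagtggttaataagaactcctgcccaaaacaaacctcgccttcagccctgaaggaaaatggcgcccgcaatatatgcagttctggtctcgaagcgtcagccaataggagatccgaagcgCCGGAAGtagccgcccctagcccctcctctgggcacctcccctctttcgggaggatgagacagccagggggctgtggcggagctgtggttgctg
Opa1, chr16:29579084-29579383, plus strand: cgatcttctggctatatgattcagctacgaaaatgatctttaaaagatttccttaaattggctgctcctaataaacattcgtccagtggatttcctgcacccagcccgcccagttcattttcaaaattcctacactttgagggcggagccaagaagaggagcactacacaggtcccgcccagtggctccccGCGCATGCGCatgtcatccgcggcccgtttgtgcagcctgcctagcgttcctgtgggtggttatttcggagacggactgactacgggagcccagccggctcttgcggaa
Tomm22, chr15:79670618-79670917, plus strand: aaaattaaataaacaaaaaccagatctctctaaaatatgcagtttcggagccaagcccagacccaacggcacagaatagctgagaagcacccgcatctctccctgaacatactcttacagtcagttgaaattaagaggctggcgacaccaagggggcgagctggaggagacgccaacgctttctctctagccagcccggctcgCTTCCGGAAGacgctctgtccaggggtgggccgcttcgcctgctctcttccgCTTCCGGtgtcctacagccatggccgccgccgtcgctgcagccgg
Timm8b, chr9:50603651-50603950, plus strand: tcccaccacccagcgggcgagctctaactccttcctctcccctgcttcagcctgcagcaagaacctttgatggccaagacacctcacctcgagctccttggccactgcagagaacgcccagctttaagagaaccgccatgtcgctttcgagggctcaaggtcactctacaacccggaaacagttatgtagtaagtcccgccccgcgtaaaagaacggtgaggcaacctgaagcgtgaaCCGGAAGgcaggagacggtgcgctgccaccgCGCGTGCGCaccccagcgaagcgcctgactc
Fis1, chr5:136953025-136953324, plus strand: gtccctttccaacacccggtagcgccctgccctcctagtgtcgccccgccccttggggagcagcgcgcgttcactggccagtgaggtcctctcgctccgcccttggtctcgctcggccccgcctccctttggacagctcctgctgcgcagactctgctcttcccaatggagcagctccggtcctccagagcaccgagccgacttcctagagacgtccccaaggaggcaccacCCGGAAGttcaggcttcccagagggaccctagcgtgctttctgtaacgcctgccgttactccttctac
In Polg the Gabpa letters began 38 bases before the start of the gene, in Tfam 47 bases before, in Mfn1 44 bases before and in Fis1 18 bases before. In Opa1 the Nrf1 letters matched on both strands in overlapping positions, beginning 59 and 58 bases before the start. Tomm22 carried overlapping Gabpa matches on opposite strands, beginning 47 and 44 bases before the start, and another 5 bases after it. No match did not mean a small difference. The windows of Timm44 and Timm50, described below, held neither motif, and Fis1, whose window held the Gabpa letters, was not called in any comparison. Among tested genes in the table, the median log2 difference between Lr11 -/- and WT scWAT was 0.71 for the 17 genes with the Gabpa letters and 1.14 for the 16 without.

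Levels are given as the log2 of the spot intensity relative to the 75th percentile of its array, so that 0 is a probe as bright as that percentile and 1 unit is a doubling. Levels of different genes come from different probes and are not compared. Of the 37 genes, 36 passed the filter on dim probes and 35 were well above background on all 12 arrays. Tomm20l was not well above background on any array and was not tested. A call means an adjusted p under 0.05 in limma after Benjamini-Hochberg adjustment over the 32121 probes tested, and background shares are over the 14698 named genes tested, each read in the same way. Sorl1 itself read 0.91 to 1.15 in WT scWAT, -3.57 to -2.87 in Lr11 -/- scWAT, 0.11 to 1.21 in WT BAT and -3.93 to -2.45 in Lr11 -/- BAT, which fits the labels. Adipocyte markers had medians of 6.66 to 8.39 on 11 arrays, apart from WT scWAT array 2 at 4.04, where macrophage markers were highest at 4.29. All 12 skeletal muscle markers were well above background on 5 arrays (WT scWAT array 3, Lr11 -/- scWAT array 1, WT BAT arrays 1 and 3, Lr11 -/- BAT array 1). Over the 6 of these markers that were tested, medians there were 6.76 to 9.38, against -1.80 to -0.93 on the other 7. Epithelial markers, 3 of 5 tested, reached a median of 0.98 on Lr11 -/- scWAT array 1 and were at most -2.05 elsewhere. Array 1 of every group belonged to a first array series and the other arrays to a second.

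**Figure D1:**
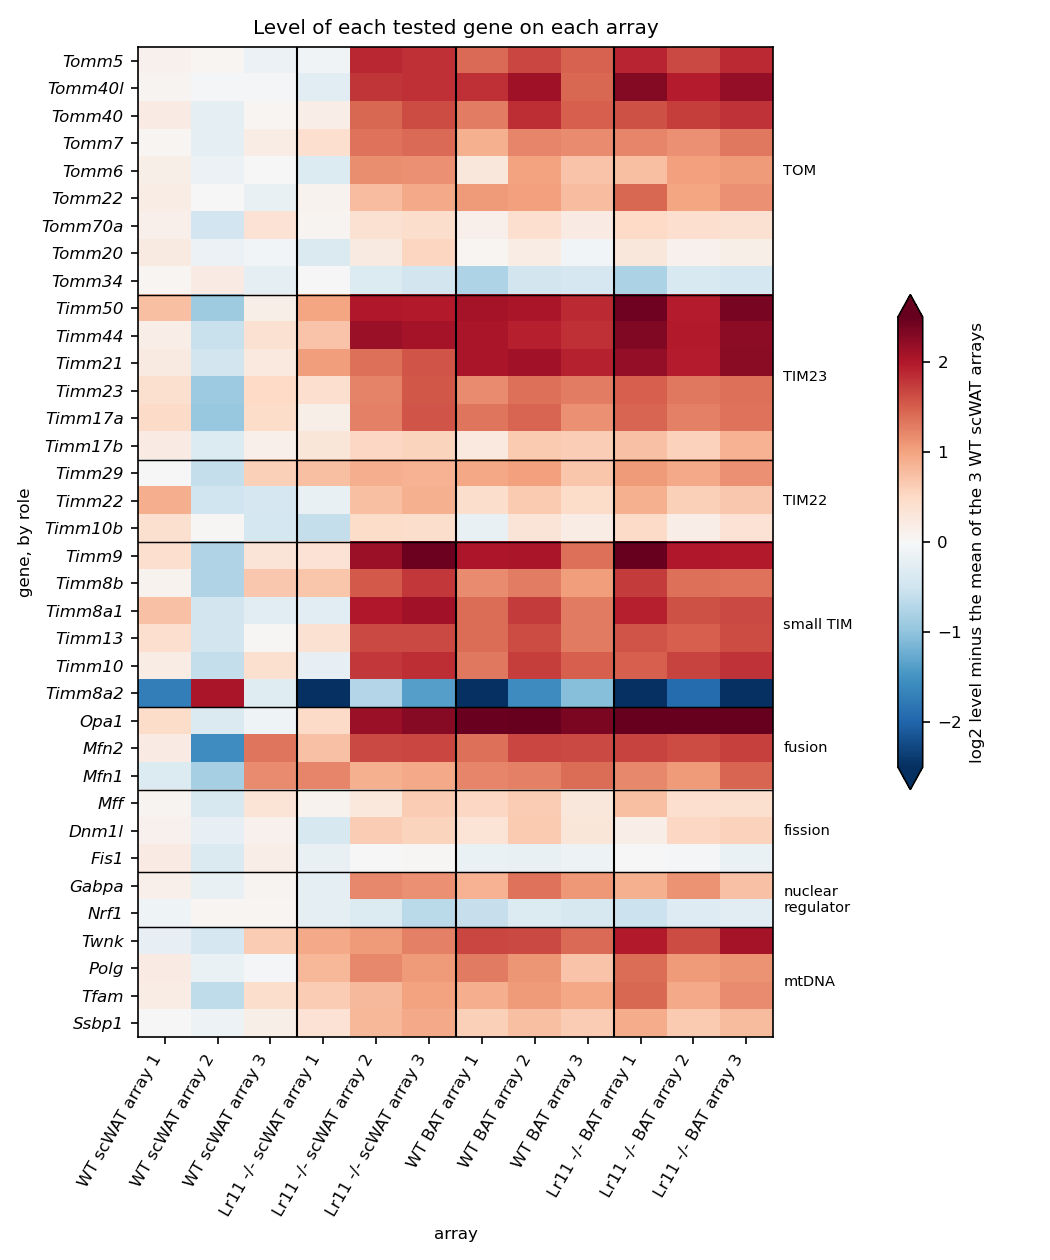
Heat map of the 36 tested genes (rows, by role) on the 12 arrays (columns). Colour is the log2 level minus the mean of the 3 WT scWAT arrays, clipped at 2.5 in either direction, red being higher. Lr11 -/- scWAT arrays 2 and 3 look like the 6 BAT arrays, Lr11 -/- scWAT array 1 lies close to WT scWAT, and Tomm34, Timm8a2, Fis1 and Nrf1 do not share the pattern.

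In scWAT the genes that passed the test were all higher in Lr11 -/- than in WT and belonged to TIM23 and to the mitochondrial DNA genes. No TOM, TIM22, small TIM, fusion or fission gene passed, and whether the roles differ was not tested. The median log2 difference over the 36 genes was 1.01, against 0.05 over all 14698 genes, and 32 of the 36 were above 0. Higher calls numbered 5 of 36 (Timm21, Timm44, Timm50, Polg and Twnk), where the background was 3.63%, and there were no lower calls against a background of 2.42%. At an unadjusted p under 0.05 there were 23 of 36, against 29.9% of all genes. In 12 genes all 3 Lr11 -/- arrays exceeded all 3 WT arrays (background 11.4%) and in 1 gene, Nrf1, they lay below (background 9.53%). The cell markers moved between the same groups, with a median difference of 1.44 for adipocyte markers (8 of 8 above 0, 0 called) and -0.84 for macrophage markers (5 of 5 below 0, 0 called), and their part in the result was not tested. With the array series as a block, Timm50 and Twnk lost their calls, at adjusted p of 0.054 and 0.0557 in limma, and Tomm7 gained one. With the slide as a block Timm44 lost its call too, at 0.0536, and Timm21 and Polg kept theirs.

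All calls among the import genes were subunits of TIM23. Timm50, the receptor that takes proteins over from TOM, read 2.08, 0.45 and 1.48 in WT scWAT against 2.33, 3.34 and 3.31 in Lr11 -/- scWAT. The groups did not overlap, although the lowest Lr11 -/- array was close to the highest WT array. The difference was 1.66 ± 0.40 (SE), 3.15-fold, with an adjusted p of 0.0452 in limma, or 0.0533 by a second probe. Timm44, which tethers the import motor to the channel, read 3.09, 2.36 and 3.29 in WT and 3.63, 5.07 and 4.99 in Lr11 -/- scWAT. Arrays 2 and 3 of the knockout stood well above the rest, and the difference was 1.65 ± 0.38 (SE), 3.14-fold, adjusted p of 0.0422 in limma. Timm21, which links TIM23 to TOM and to the respiratory chain, read 0.54, -0.14 and 0.57 in WT and 1.37, 1.69 and 1.90 in Lr11 -/- scWAT. Here all 3 knockout arrays lay clear of WT, and the difference was 1.33 ± 0.24 (SE), 2.51-fold, adjusted p of 0.0297 in limma. The channel subunits had differences of 1.07 for Timm23, 0.99 for Timm17a and 0.46 for its paralogue Timm17b, none of which passed the test.

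No TOM gene was called in scWAT. The small subunits Tomm5 and Tomm7 had differences of 1.21 and 1.06, the pore Tomm40 1.08 and its paralogue Tomm40l 1.11. Tomm7 came closest, with WT scWAT at 5.16, 4.87 and 5.31, Lr11 -/- scWAT at 5.53, 6.47 and 6.53, and an adjusted p of 0.0507 in limma. The small subunit Tomm6 and the receptor Tomm22 differed by 0.66 and 0.60. The receptors Tomm20 and Tomm70a, which meet proteins in the cytosol first, differed by 0.14 ± 0.24 and 0.30 ± 0.24 (SE), and Tomm34, a cytosolic co-chaperone, by -0.26 ± 0.22 (SE). Tomm20 read 4.686, 4.312 and 4.395 in WT scWAT against 4.103, 4.698 and 5.001 in Lr11 -/- scWAT, so that the knockout values enclosed those of WT.

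Among the small TIM chaperones, none was called, and the differences of Timm10, Timm13, Timm8a1, Timm8b and Timm9 lay between 1.13 and 1.64, with Timm10 at the lower end, Timm13 at 1.23 and Timm8a1 at 1.28. Timm9 had the largest difference of these, with WT scWAT at 1.31, 0.13 and 1.20 and Lr11 -/- scWAT at 1.23, 3.01 and 3.33. Its first knockout array fell inside the WT range, and the difference of 1.64 ± 0.52 (SE) had an adjusted p of 0.0796 in limma. Timm8b read 4.99, 4.13 and 5.56 in WT and 5.59, 6.42 and 6.66 in Lr11 -/- scWAT. The groups were narrowly apart, and the difference was 1.33 ± 0.37 (SE), adjusted p of 0.0591 in limma. Timm8a2 was the exception, at -4.57, -0.79 and -3.14 in WT and -5.70, -3.57 and -4.22 in Lr11 -/- scWAT. It was dim, well above background on all 3 WT scWAT arrays but on 1 of 3 Lr11 -/- scWAT arrays, and its difference of -1.66 ± 0.93 (SE) had an adjusted p of 0.274 in limma. Of the TIM22 genes, Timm29 differed by 0.84, the channel Timm22 by 0.48 and Timm10b by 0.10, without a call. A second probe of Timm10b gave 0.68.

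By their brightest probes, the genes that copy and package mitochondrial DNA were apart between the scWAT groups, with the knockout higher, in 4 of 4 cases (background 11.4%). Polg, the mitochondrial DNA polymerase, read 0.93, 0.55 and 0.69 in WT and 1.55, 1.93 and 1.80 in Lr11 -/- scWAT. The knockout arrays lay together above WT, and the difference was 1.03 ± 0.22 (SE), 2.05-fold, adjusted p of 0.0388 in limma. A second Polg probe gave 0.70 with an adjusted p of 0.0832. Twnk, the replicative helicase, read -1.89, -2.11 and -1.06 in WT and -0.74, -0.61 and -0.43 in Lr11 -/- scWAT. It differed by 1.09 ± 0.27 (SE), 2.13-fold, adjusted p of 0.0477 in limma. Tfam read 1.41, 0.59 and 1.65 in WT and 1.84, 2.02 and 2.22 in Lr11 -/- scWAT, a difference of 0.81 ± 0.27 (SE) with an adjusted p of 0.0956 in limma. Ssbp1, which coats single-stranded mitochondrial DNA, differed by 0.71, adjusted p of 0.0648, and its other probes gave 0.54 and -0.10 with overlapping groups.

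The regulators Gabpa and Nrf1 were not called in scWAT. Gabpa read 0.60, 0.28 and 0.53 in WT scWAT against 0.24, 1.67 and 1.61 in Lr11 -/- scWAT. Knockout array 1 was the lowest of the 6, and the difference of 0.71 ± 0.35 (SE) had an adjusted p of 0.215 in limma. By a second Gabpa probe all 3 knockout arrays lay above WT, with a difference of 1.26, 2.40-fold, and an adjusted p of 0.0766. Nrf1 read 0.34, 0.49 and 0.50 in WT and 0.22, 0.10 and -0.23 in Lr11 -/- scWAT. All 3 knockout arrays lay below WT, by -0.41 ± 0.19 (SE), with an adjusted p of 0.187 in limma. The other probes of Nrf1 gave -0.02 and -0.55.

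Fusion and fission genes gave unequal differences in scWAT, although the inequality itself was not tested. The fusion genes differed by 1.02 to 1.63 and the fission genes by -0.05 to 0.33, and none of the 6 was called. Opa1, the inner membrane fusion GTPase, read 2.46, 1.64 and 1.89 in WT and 2.46, 4.15 and 4.27 in Lr11 -/- scWAT. Knockout array 1 matched the highest WT array to the second decimal, while arrays 2 and 3 were far above, and the difference of 1.63 ± 0.43 (SE), 3.10-fold, had an adjusted p of 0.0531 in limma. Mfn1 read 1.18, 0.69 and 2.72 in WT and 2.76, 2.42 and 2.48 in Lr11 -/- scWAT. Mfn2 read 3.04, 1.28 and 4.16 in WT and 3.56, 4.48 and 4.50 in Lr11 -/- scWAT. For both mitofusins WT array 3, which carried the muscle markers, read with the knockout, and the differences of 1.02 ± 0.42 and 1.35 ± 0.57 (SE) had adjusted p of 0.146 and 0.157 in limma. With WT array 2 left out, which was low in adipocyte markers, the differences fell to 0.60 for Mfn1 and 0.58 for Mfn2. Neither was called in that setting, where 0.691% of all probes were. With WT array 3 left out, the differences were 1.61 for Mfn1 and 2.02 for Mfn2. Both passed the test in that setting, where 14.4% of all probes were called. Both also passed with knockout array 1, which carried the muscle markers too, left out as well (26.2% of all probes). Without the 5 arrays with muscle markers Mfn1 passed and Mfn2 did not (11.2% of all probes). Over 24 alternative settings Mfn1 was called in 3 and Mfn2 in 2.

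Dnm1l read 2.42, 2.10 and 2.42 in WT and 1.91, 2.95 and 2.87 in Lr11 -/- scWAT, a difference of 0.26 ± 0.28 (SE) with an adjusted p of 0.581 in limma. Its knockout values straddled the WT range. Fis1 read 5.42, 4.84 and 5.37 in WT and 5.03, 5.20 and 5.25 in Lr11 -/- scWAT, all knockout values falling inside the WT range, with a difference of -0.05 ± 0.20 (SE) and an adjusted p of 0.887 in limma. Mff read 3.27, 2.80 and 3.54 in WT and 3.29, 3.46 and 3.85 in Lr11 -/- scWAT. Its groups overlapped, with a difference of 0.33 ± 0.25 (SE) and an adjusted p of 0.415 in limma.

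**Figure D2:**
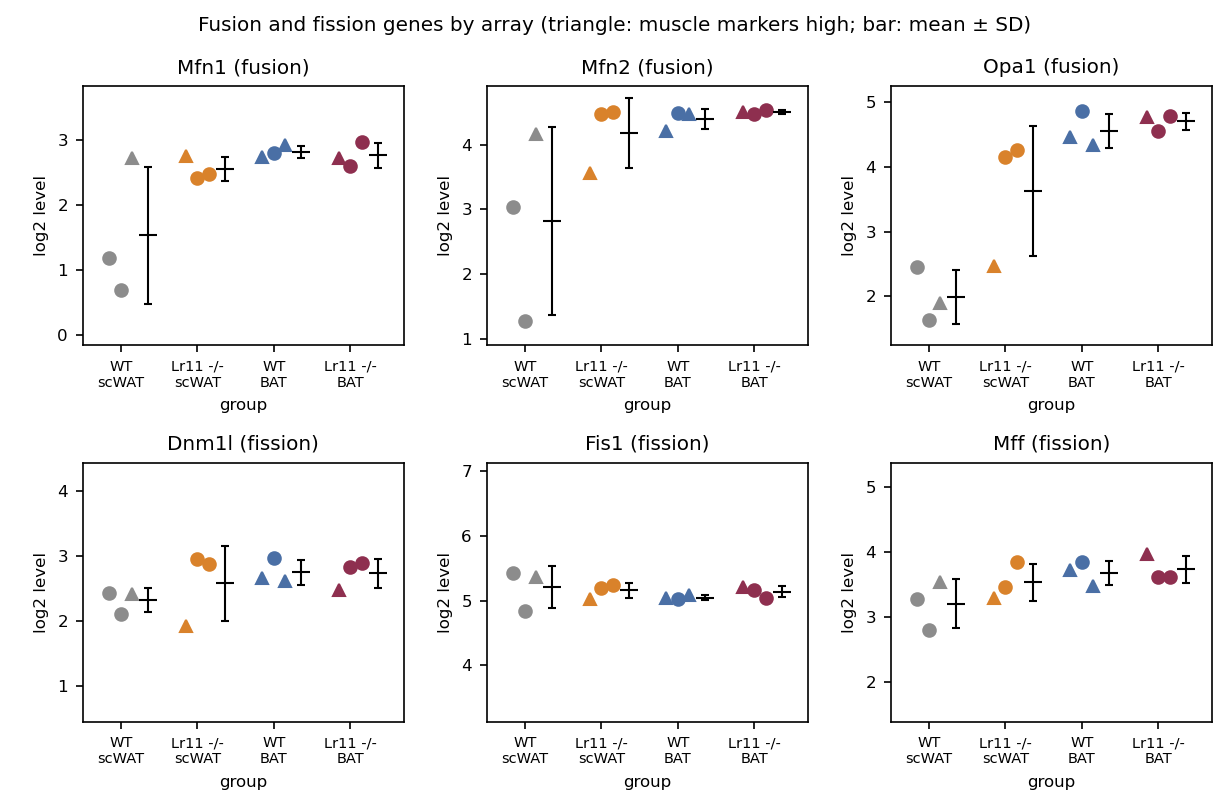
Log2 level of the fusion genes (top) and fission genes (bottom) on each array in the 4 groups; each panel spans 4 log2 units, bars are the mean ± SD of 3 arrays, and triangles mark arrays with high skeletal muscle markers. WT scWAT reaches as low as 0.69 for Mfn1 and 1.28 for Mfn2, Opa1 separates WT scWAT from all BAT arrays, and Fis1 stays between 4.84 and 5.42 on all 12 arrays.

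No difference between genotypes was called in BAT. No gene of the 36 was called, where the background was 0.0272%, and none had an unadjusted p under 0.05, where it was 1.79%. The median difference was 0.15, against 0.05 over all genes, and 32 of 36 were above 0. Apart from the dim Timm8a2, differences ran from -0.19 to 0.36. Tomm40l read 1.355, 1.652 and 0.973 in WT BAT and 1.821, 1.501 and 1.734 in Lr11 -/- BAT, the largest difference at 0.36 ± 0.47 (SE). Timm9 followed at 0.35 ± 0.52 and Twnk reached 0.32 ± 0.27 (SE). Timm8b was the only gene whose BAT groups were apart, at 6.07, 6.16 and 5.94 in WT and 6.64, 6.27 and 6.25 in Lr11 -/- BAT (background for this pattern 8.44%). Its difference was 0.33 ± 0.37 (SE) with an adjusted p of 1 in limma. At the lower end, Gabpa differed by -0.19 ± 0.35 (SE), and Timm8a2 was not well above background on any Lr11 -/- BAT array, so that no fold is given.

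WT BAT exceeded WT scWAT in most of the import machinery, which gives the scale of the depot difference in the same arrays. These values share the WT scWAT arrays with the genotype comparison, so the likeness of the comparisons is not independent evidence of either. Higher calls numbered 22 of 36, where the background was 15.7%, and lower calls 0, where it was 10.6%. The groups were apart with BAT higher in 27 genes (background 24.2%) and with BAT lower in 2, Tomm34 and Nrf1 (background 17.2%). Nrf1 differed by -0.43, whereas its other probes gave 0.19 and -0.68. The median difference was 1.103 over the 36 genes and 0.06 over all genes.

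Opa1 had the largest depot difference, with WT BAT at 4.46, 4.85 and 4.34 against the WT scWAT values given above. The difference was 2.56 ± 0.43 (SE), 5.88-fold, with an adjusted p of 0.00461 in limma. Timm21 read 2.37, 2.43 and 2.25 in WT BAT, higher by 2.03 ± 0.24 (SE), 4.08-fold, adjusted p of 0.00191 in limma. Timm50 read 3.41, 3.37 and 3.21 in WT BAT and Timm44 4.96, 4.86 and 4.73. These genes were tight in BAT and exceeded WT scWAT by 1.99 ± 0.40 and 1.94 ± 0.38 (SE), adjusted p of 0.00805 and 0.00707 in limma. By role, the called genes were 5 of 9 of TOM (Tomm22, Tomm40, Tomm40l, Tomm5, Tomm7), 5 of 6 of TIM23, 1 of 3 of TIM22 (Timm29), 4 of 6 small TIM genes (Timm10, Timm13, Timm8b and Timm9), 2 of 3 fusion genes (Opa1 and Mfn1), 0 of 3 fission genes, Gabpa of the regulators and 4 of 4 mitochondrial DNA genes. Twnk differed by 1.58, Polg by 1.04 and Tfam by 0.98. Mfn2 missed the threshold at 1.56 ± 0.57 (SE), adjusted p of 0.0679, as did Timm8a1 at 1.48 with 0.075 in limma. The other probes of Mfn2 passed, at 0.0224 and 0.0375, while a second probe of Mfn1 did not, at 0.0529.

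Several genes were called neither between genotypes nor between the WT depots. In the depot comparison Tomm20 differed by 0.05, Tomm70a by 0.25, Timm10b by 0.11 (1.105 by its other probe), Dnm1l by 0.43 ± 0.28, Fis1 by -0.17 ± 0.20 and Mff by 0.48 ± 0.25 (SE). For Dnm1l all 3 WT BAT arrays lay above WT scWAT. Tomm34 read 2.36, 2.67 and 2.71 in WT BAT against 3.17, 3.33 and 2.88 in WT scWAT. BAT was lower on every array, by -0.55 ± 0.22 (SE) with an adjusted p of 0.0904 in limma. Timm8a2 read -6.28, -4.42 and -3.90 in WT BAT, well above background on 1 of 3 arrays, and differed from WT scWAT by -2.03 ± 0.93 (SE), adjusted p of 0.131 in limma.

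**Figure D3:**
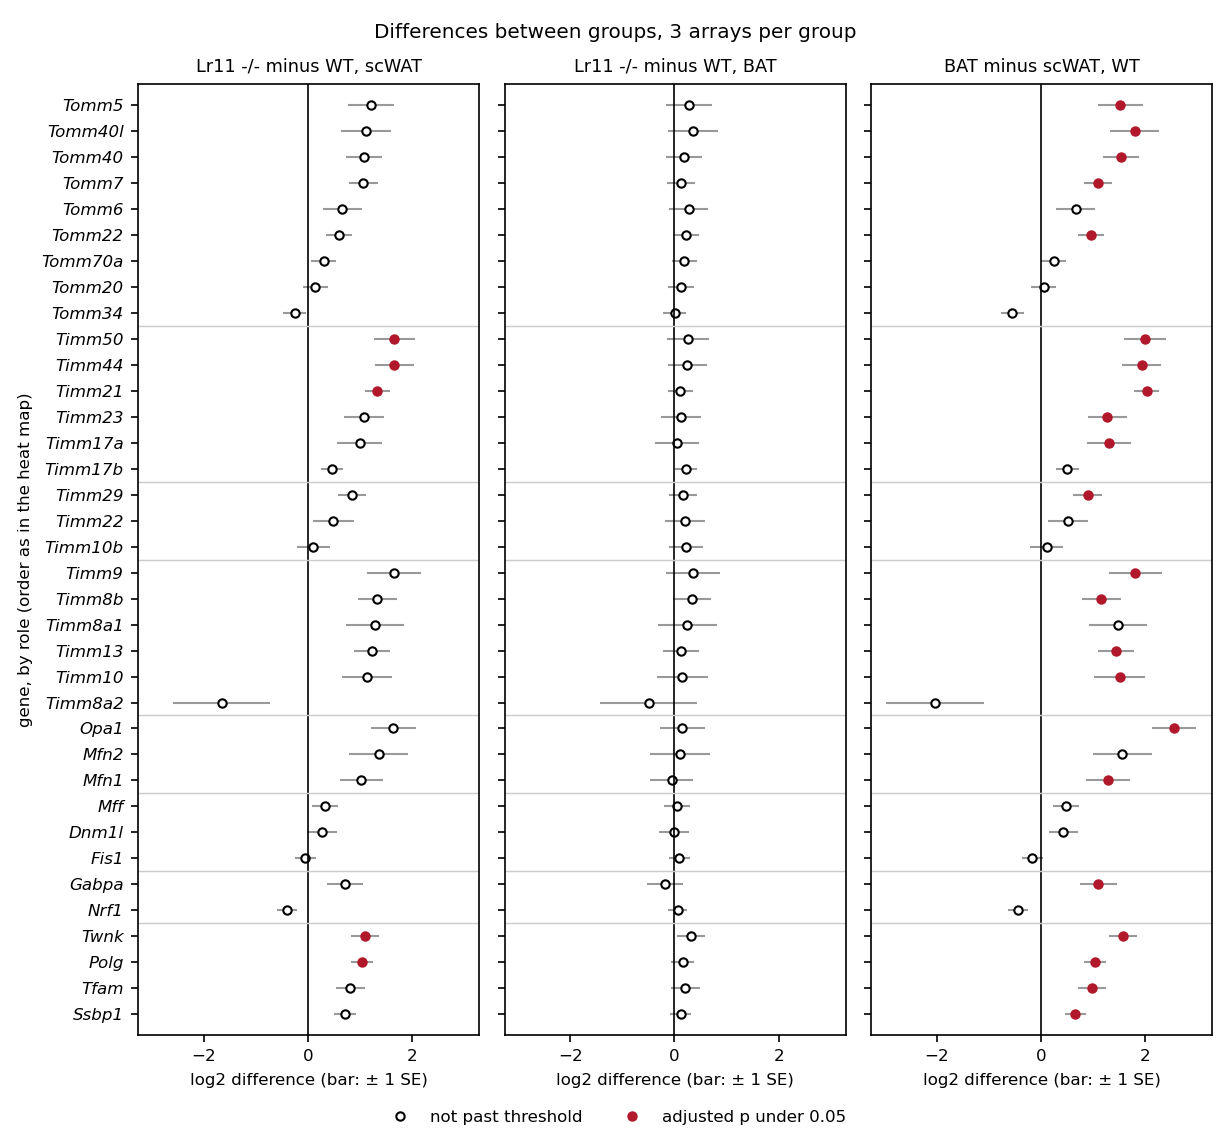
Log2 difference of each tested gene with ± 1 SE, for Lr11 -/- minus WT in scWAT (left), the same in BAT (middle) and BAT minus scWAT in WT (right); filled points passed an adjusted p of 0.05. There are 5 filled points on the left, 0 in the middle and 22 on the right, and no fission gene is filled in any panel.

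In knockout mice no depot difference passed the test. No gene was called between Lr11 -/- BAT and Lr11 -/- scWAT (background 0.0612%), 4 had an unadjusted p under 0.05 (background 8.84%), namely Tomm22, Timm21, Opa1 and Twnk, and the median difference was 0.28, or -0.03 without Lr11 -/- scWAT array 1. In 7 genes all BAT arrays were higher (background 14.8%). Opa1 read 4.76, 4.55 and 4.78 in Lr11 -/- BAT, above all its Lr11 -/- scWAT arrays by 1.07 ± 0.43 (SE), adjusted p of 0.496 in limma. The genotype effect in scWAT minus that in BAT had a median of 0.83 and reached 1.48 ± 0.61 (SE) in Opa1. No gene passed the test of this difference (background 0%), 7 had an unadjusted p under 0.05 (background 12.2%), and the lowest adjusted p was 0.383, for Timm21. The genotype effect was therefore not shown to differ between depots. Without Lr11 -/- scWAT array 1, 8 genes passed this test (1193 of all probes, 3.71%). Without WT scWAT array 3 Mfn1 passed (236 probes, 0.735%), and in the second array series alone 3 genes did (890 probes, 2.77%).

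The scWAT difference varied with the arrays. The median level of the 36 genes was 3.19 on Lr11 -/- scWAT array 1, 3.75 on array 2 and 3.88 on array 3, against 3.00, 2.23 and 2.96 in WT scWAT and 3.54 to 3.94 in BAT. On knockout array 1, 13 of the 36 genes lay above all WT scWAT arrays and 8 lay below them all. On arrays 2 and 3 the genes above all WT arrays numbered 29 and 30. Shares over all genes were not counted for these positions, so the counts describe the arrays and are not set against a background. Brown adipocyte markers followed the same arrays, with medians of 1.40, 5.57 and 5.62 in Lr11 -/- scWAT, 0.13, -3.06 and 1.15 in WT scWAT and 5.31 to 6.11 in BAT. Of the 10 brown markers 5 were called higher in Lr11 -/- scWAT, where the background was 3.63%. Of 15 mitochondrial genes, mostly of the respiratory chain but with Cs and Vdac1 among them, 7 were called higher, with a median difference of 2.17. WT scWAT array 2 held the lowest value of all 12 arrays in 25 of the 36 genes and was also low in adipocyte markers. The share of all genes lowest on that array was not counted either. The part of these markers in the result was not tested.

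Within the first array series, 1 array per group, the median genotype difference in scWAT was -0.04 and 16 of 36 genes were above 0. Within the second series it was 1.24, 33 of 36 were above 0 and 21 were called, with 2 arrays per group, where 22.6% of all probes were called against 5.27% on all arrays. In scWAT the muscle and epithelial markers were high on the knockout array of the first series. In the second series the muscle markers were high on WT array 3. Series and tissue content therefore cannot be told apart here. Among the genes higher in the knockout in both series were Twnk (1.14 and 1.07), Timm21 (0.83 and 1.58), Timm29 (0.75 and 0.88) and Polg (0.62 and 1.24). Mfn1 (1.58 and 0.74) and Timm44 (0.54 and 2.21) were others, and the list is not complete. Opa1 gave 0.01 and 2.44, and Timm9 -0.08 and 2.51. In WT the depot difference had medians of 0.85 and 1.18, with 28 and 32 of 36 above 0, and Timm22 turned from -0.47 to 1.01. In BAT the medians were 0.32 and 0.08.

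Whether the 5 calls in scWAT held depended on the array left out. All 5 were kept without knockout array 1 or without WT scWAT array 3, and 4 of them without WT scWAT array 1, where 13.7% of all probes were called. Without WT scWAT array 2 the count was 0 and the median 0.61, and it was also 0 without knockout array 2, without knockout array 3, or without any of the 6 BAT arrays, which enter only through the shared estimate of spread. Calls over all probes fell as well, from 1692 to 222 without WT array 2, to 28 and 3 without knockout arrays 2 and 3, and to 145 to 175 without a BAT array. The count was 21 without knockout array 1, where 19.8% of all probes were called, and 12 without WT array 3, where 14.4% were. Without both WT array 2 and knockout array 1 it was 20 with a median of 0.94, and 18.8% of all probes were called. Both of these arrays stood apart by their markers, but WT array 3, which carried the muscle markers, was kept. Leaving out the 5 arrays with muscle markers gave 16 calls and a median of 1.34, with 11.2% of all probes called. In WT the depot calls fell from 22 to 6 without WT BAT array 2 to 9 without WT scWAT array 2 or WT BAT array 1, to 11 without WT BAT array 3, and to 14 without array 2 or array 3 of Lr11 -/- BAT. Over all probes the depot calls were 7970 on all arrays and 3276 to 6552 in these settings.

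**Figure D4:**
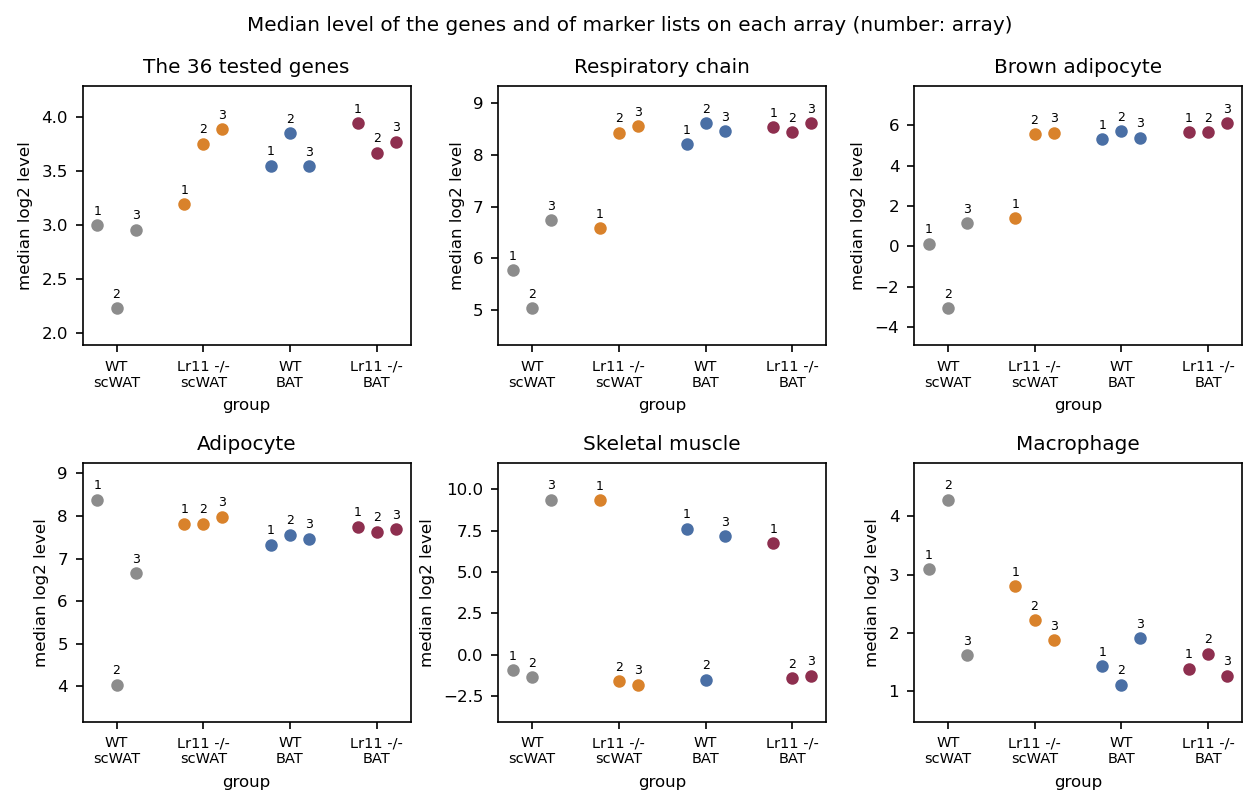
Median log2 level on each array (numbered points, by group) for the 36 tested genes, 15 mitochondrial genes (panel titled Respiratory chain, with Cs and Vdac1 included) and markers of brown adipocytes, adipocytes, skeletal muscle (the 6 tested) and macrophages. Lr11 -/- scWAT array 1 lies near WT scWAT in the first 3 panels, WT scWAT array 2 is lowest in adipocyte markers at 4.04 and highest in macrophage markers at 4.29, and the 5 arrays with high muscle markers fall in all 4 groups.

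Other genes of the same processes were taken from lists chosen with earlier results known. The background for higher calls was 3.63% in scWAT and 15.7% between the WT depots. Of 23 further import genes, among them chaperones of the import motor and processing peptidases, 5 were called higher in Lr11 -/- scWAT with a median difference of 1.34. Immp2l, a subunit of the inner membrane peptidase, had the largest, at 3.62 with an adjusted p of 0.0407 in limma, and Mipep, the intermediate peptidase, gave 2.44. Of 16 further genes of mitochondrial dynamics 3 were called higher, with a median of 0.95, and Mtfp1, a fission protein of the inner membrane, was one of these at 2.81 with an adjusted p of 0.0494 in limma. Of 18 further genes of mitochondrial biogenesis 6 were called higher, with a median of 1.27, and 3 were below 0. Between the WT depots the higher calls numbered 19, 9 and 11, with 1 lower call in the last list. None was called between genotypes in BAT. Gfer, which oxidises imported proteins in the intermembrane space, was singled out after its values were seen. It read 0.24, 0.56 and 0.26 in WT BAT and 1.69, 1.78 and 1.81 in Lr11 -/- BAT, a difference of 1.41 ± 0.48 (SE) with an unadjusted p of 0.0142 in limma and an adjusted p of 1.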

How the data were processed

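Cy3-labelled cRNA made from total RNA was hybridised to Agilent mouse arrays. Per the file headers, the deposited spot intensity is the processed signal of Agilent Feature Extraction 10.10.1.1, which the authors ran to subtract background and spatial trend, and the deposited series table holds the same intensity values. Control spots and outlier flags were left out here. Each array was scaled as log2 intensity minus the log2 of its 75th percentile (374 to 632), spots of a probe were averaged, and 32121 of 55681 probes, those bright in every array of some group, were tested. Spots well above background numbered 32377 to 37002 per array, and the number of arrays limits the precision. Accessions were named through the RefSeq table of GRCm38.p6 (27235 probes). limma 3.58.1 in R 4.3.3 was fitted with a mean per group over all 12 arrays, then eBayes and Benjamini-Hochberg adjustment over all tested probes. The procedure was tested on simulated data.

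Every gene chosen by symbol is named. Values per array are given for those with the 4 highest or 2 lowest differences in either genotype comparison or between the WT depots, for Mfn1, Mfn2, Opa1, Dnm1l, Fis1, Mff and Tfam, and for a few flat or near-threshold genes picked after their values were seen. The genes and lists were chosen with earlier results of these data known. Alternatives covered scaling, background correction, the dim-probe filter, array series, slide and single arrays. Array 1 of each group was on slides that held only such arrays (slide 1 for scWAT, slide 3 for BAT), and the rest were on slide 2.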

Additional observations from a re-analysis of the deposited data

How the results depend on the processing

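Shares in brackets are of all tested probes called in the same setting. The 5 scWAT calls (5.27%) became 0 without scaling (2.61%), without the dim-probe filter (0.271%) and with only the arrays compared (0%). They were 2 with slide as a block (2.84%), 21 in the second array series alone (22.6%) and 16 without the muscle-marker arrays (11.2%). Without WT scWAT array 2 and Lr11 -/- scWAT array 1 they were 20 (18.8%). Without Lr11 -/- scWAT array 1 and WT scWAT array 3 they were 25 (26.2%). Leaving out single arrays gave 0 to 21 (0.00934% to 19.8%). The 22 WT depot calls (24.8%) became 9 (22.4%), 11 (10.4%) and 14 (12.2%) under the first 3 of these settings. They were 7 with slide as a block (12.4%) and 8 without the muscle-marker arrays (7.35%). With single arrays left out they ranged from 6 (10.2%) to 24 (29.6%). Calls of the difference between depots, 0 in all (0%), became 3 in the second series (2.77%). Without the named pairs of scWAT arrays they were 11 (6.08%) and 14 (9.43%). With single arrays left out they were 0 to 8 (0% to 3.71%). Cause was not tested, save that smaller fits hold fewer arrays.

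The median genotype difference in scWAT was -0.035 in the first series alone. In BAT the median of 0.153 became -0.005 without the muscle-marker arrays and 0.318 in the first series. The knockout depot median of 0.276 became -0.043 in the second series and without the muscle-marker arrays, -0.025 without either pair of scWAT arrays and 1.059 in the first series, with -0.025 to 0.458 over single arrays left out. The median of the difference between depots, 0.826, became 1.375, 1.257 and -0.322 without the muscle-marker arrays, without Lr11 -/- scWAT array 1 and WT scWAT array 3, and in the first series, with 0.511 to 0.976 over single arrays. Fis1 turned from -0.05 in scWAT to 0.118 in the second series, 0.094 without the muscle-marker arrays or both muscle-marked scWAT arrays, 0.052, 0.028 and 0.014 without WT scWAT array 1, WT scWAT array 3 and Lr11 -/- scWAT array 1, and -0.237 to 0.052 over all single arrays left out. In BAT without the muscle-marker arrays Tomm40l turned to -0.034 and Timm9 to -0.054. Settings that leave out groups of arrays by their markers, normexp on the median signals (the planned version on mean signals was not run, its column not being in the files used) and the first series were chosen after seeing the data. Without scaling the median of all probes moved by -0.25 in scWAT and -0.32 between the WT depots. No paired analysis was possible because the labels give the arrays no replicate numbers.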
